A study of Homo sapiens with 6 samples.

Results

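Low-complexity tracts are stretches of genomic DNA with a strongly biased base composition. The loci described here are the rows of the deposited count tables whose repeat name contains "-rich" or starts with polypurine or polypyrimidine. They number 7186 of 433837 listed loci and carry 4 of 5230 repeat names. GA-rich tracts made up 2898 of them, G-rich tracts 2419 and A-rich tracts 1868, and 1 locus was named polypurine. No listed locus had a name starting with polypyrimidine. The rule used names only and no measured value.

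RNA was measured in HEK293T, a human embryonic kidney line that makes the large T antigen of SV40. In 3 libraries the cells had received a chimeric, chemically modified antisense oligonucleotide (ASO) against U7 small nuclear RNA, and the labels give their genotype as U7 snRNA knockdown. In the 3 control libraries they had received an ASO against GFP, with a genotype label of WT. Both ASOs were delivered with a lipid reagent at 100 nM, and total RNA depleted of ribosomal RNA was sequenced. Within a group the libraries are described as biological replicates of this 1 line, and no culture dates are given. The series title puts the question of how U7 RNA bears on HERV1/LTR12 elements and on long noncoding RNAs between genes. U7 RNA guides the 3′ end processing of replication-dependent histone transcripts.

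Low-complexity tracts are not mobile elements and have no promoter of their own. RNA over them would come from genes or other transcription units that cross them, and the origin of the reads was not tested. A-rich tracts are common in the tails of retroposed elements. GA-rich tracts are runs of purines, and G-rich tracts are frequent in and around gene promoters and can form G-quadruplex structures. A polypurine tract is likewise made of A and G. The tables give no coordinates, so the position, the sequence and any host gene of a tract were not analysed here. Each locus keeps its name in the tables, which joins the repeat name to a copy number and, at the end, a running number.

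The libraries held 2089822, 2348997 and 2819540 reads over repeat loci with the U7 ASO, against 2025985, 1926892 and 1980793 in the controls. At the 16 loci listed under the name U7 there were 10, 4 and 6 reads with the U7 ASO, against 10, 6 and 12 in the controls, too few to check the depletion. The tables hold repeat loci only, so no marker gene of the line was checked. LTR12 and HERV9 loci took 2.01% to 3.18% of the reads with the U7 ASO, against 0.213% to 0.266% in the controls. Ribosomal RNA repeats took 19.4% to 22.2% of the reads with the U7 ASO and 14.8% to 22.3% in the controls, with the lowest share in control replicate 3.

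Low-complexity tracts took a smaller share of the reads in every U7 ASO library than in any control library, by a small margin. The share was 3.01%, 2.42% and 2.24% with the U7 ASO, against 3.42%, 3.41% and 3.09% in the controls. The exact 95% intervals (Clopper-Pearson) ran from 2.23% to 3.03% over the U7 ASO libraries and from 3.06% to 3.44% over the controls, and cover counting error only. U7 ASO replicate 1 and control replicate 3 lay next to each other. The means were 2.56% ± 0.400 with the U7 ASO and 3.31% ± 0.190 in the controls (SD, n = 3 each). The two-sided exact permutation test gave p = 0.1, and 3 libraries against 3 cannot go lower. In bulk RNA, fewer cells with such transcripts and less RNA per cell cannot be told apart. Absolute reads overlapped between the groups, at 62842, 56837 and 63269 with the U7 ASO and 69239, 65789 and 61134 in the controls. Among reads outside LTR12 and HERV9 names the shares also overlapped, at 3.11%, 2.47% and 2.30% with the U7 ASO against 3.42%, 3.42% and 3.09% in the controls (exact p = 0.2). The groups overlapped as well when the leading A-rich and G-rich loci, described below, were left out. The shares were then 2.89%, 2.29% and 2.10% with the U7 ASO, against 3.05%, 2.99% and 2.73% in the controls (exact permutation p = 0.2). The part of the retroviral or ribosomal RNA reads in the difference was not tested further.

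RNA from A-rich tracts fell with the U7 ASO. Summed over all A-rich loci it stood at 3056, 2894 and 2963 CPM (reads per 1e6 reads, after TMM scaling) in the U7 ASO libraries, against 4102, 4533 and 4851 CPM in the controls. The groups did not overlap, and the 3 U7 ASO libraries were close to each other. Of all names tested 10.2% were lower in every U7 ASO library than in any control library. The means were 2971 ± 81.7 CPM with the U7 ASO and 4495 ± 376 CPM in the controls (SD, n = 3 each). The log2 fold change was −0.60 (SE 0.14, 95% interval −0.89 to −0.30, adjusted p = 0.0210, edgeR quasi-likelihood test over 2236 repeat names). Across all names tested 2.55% were called changed and 1.03% were called lowered. The A-rich call was lost without U7 ASO replicate 2, U7 ASO replicate 3, control replicate 2 or control replicate 3, with adjusted p-values up to 0.173, and with library totals as the only scaling (adjusted p = 0.115).

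G-rich and GA-rich tracts, which held more reads, did not pass. G-rich tracts were the most abundant, at 14912, 11039 and 10691 CPM with the U7 ASO against 20068, 18663 and 13743 CPM in the controls. U7 ASO replicate 1 lay above control replicate 3, so the groups overlapped. The log2 fold change was −0.52 (SE 0.16, 95% interval −0.84 to −0.19, adjusted p = 0.0981). This call was gained without U7 ASO replicate 1 (adjusted p = 0.00136) or control replicate 3 (adjusted p = 0.0152). With no count filter the name passed as well (adjusted p = 0.0351), and so it did under limma-voom (adjusted p = 0.0287).

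GA-rich tracts stood at 11577, 9432 and 8855 CPM with the U7 ASO and 12900, 12111 and 10892 CPM in the controls. Here too U7 ASO replicate 1 lay above control replicate 3. The log2 fold change was −0.27 (SE 0.14, 95% interval −0.55 to 0.02, adjusted p = 0.388), and the name passed without U7 ASO replicate 1 (adjusted p = 0.0493). The single polypurine locus held 6 reads, all in U7 ASO replicate 3, and was not tested. Whether the 3 names differed from each other in their change was not tested by a model.

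**Figure D1:**
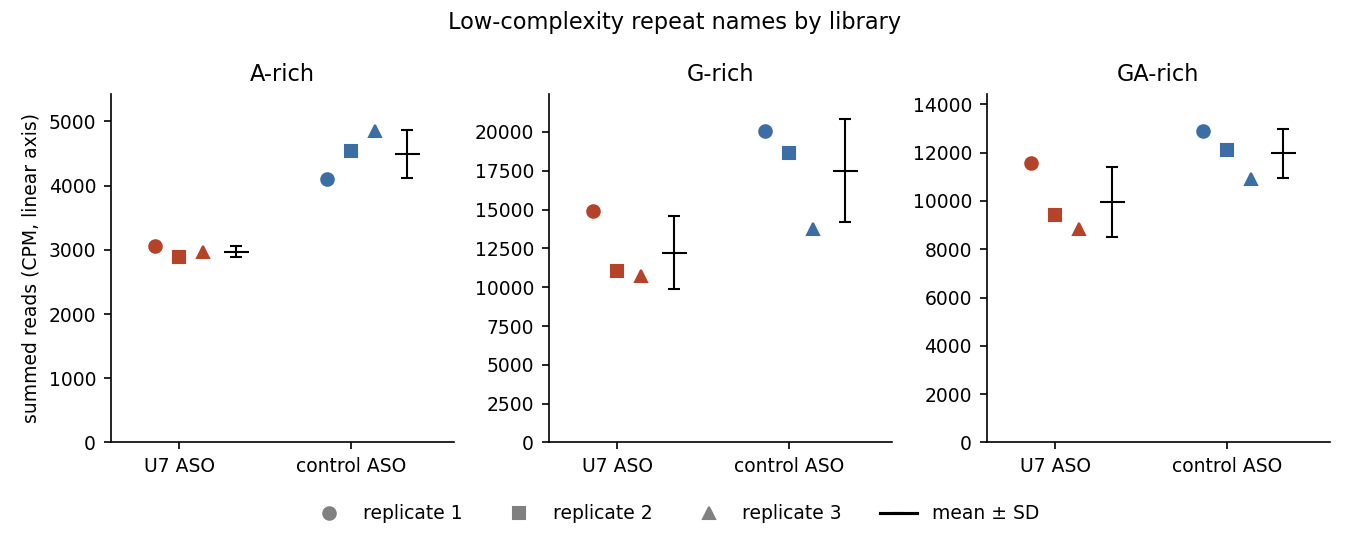
Summed reads of A-rich, G-rich and GA-rich loci in each library, in CPM after TMM scaling on linear axes from 0, with U7 ASO libraries left of control libraries and bars for mean ± SD of 3 libraries. The groups separate for A-rich tracts, whereas U7 ASO replicate 1 lies above control replicate 3 for G-rich and GA-rich tracts.

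Within a library, the share of GA-rich tracts separated the groups and those of the other names did not. GA-rich tracts made up 39.2%, 40.4% and 39.3% of the low-complexity reads with the U7 ASO, against 34.8%, 34.3% and 36.9% in the controls, and the groups did not overlap. G-rich tracts made up 50.5%, 47.2% and 47.5% with the U7 ASO and 54.1%, 52.9% and 46.6% in the controls. A-rich tracts made up 10.3% to 13.2% with the U7 ASO and 11.1% to 16.5% in the controls. In exact two-sided permutation tests adjusted over the 3 names none passed, with adjusted p = 0.3 for GA-rich tracts and 0.5 for the others. The shares are parts of the same total, so a smaller part for any name enlarges the others. The leading A-rich and G-rich loci, described below, took 3.98%, 5.37% and 6.39% of that total with the U7 ASO. In the controls they took 10.9%, 12.3% and 11.5%. The GA-rich share without these loci was not tested.

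Much of the difference in A-rich and in G-rich tracts lay in 1 locus each, and these loci were 18 running numbers apart. The leading A-rich locus, A-rich_dup1134_3036304, held 349, 586 and 738 reads with the U7 ASO, against 1150, 1593 and 1843 in the controls. It was 329 ± 96.1 CPM with the U7 ASO and 994 ± 215 CPM in the controls, and it fell by 1.59 on the log2 scale (SE 0.30, adjusted p = 0.00371, edgeR over 14380 loci). The leading G-rich locus, G-rich_dup210_3036322, was the most abundant low-complexity locus of all. It held 2150, 2464 and 3307 reads with the U7 ASO, against 6367, 6507 and 5206 in the controls. Its level was 1565 ± 228 CPM with the U7 ASO and 3940 ± 598 CPM in the controls, and it fell by 1.33 on the log2 scale (SE 0.24, adjusted p = 0.00247). At both loci every U7 ASO library lay below every control library.

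These 2 loci carried 37.0% of the difference in A-rich reads and 39.2% of that in G-rich reads between the group means. For these shares the loci were put on the scale of the name sums, which differs from that of the locus CPM above. Together they made up 5.25% ± 1.21 of the low-complexity reads with the U7 ASO and 11.6% ± 0.728 in the controls. Without its leading locus the A-rich name stood at a log2 fold change of −0.43 (SE 0.14, 95% interval −0.73 to −0.13) and no longer passed (adjusted p = 0.140). Its 3 remaining sums with the U7 ASO, 2892, 2653 and 2700 CPM, still lay below the 3487, 3678 and 3962 CPM of the controls. G-rich tracts without their leading locus stood at −0.36 (SE 0.16, adjusted p = 0.301). The leading GA-rich locus lay on the other side of 0 from its name. GA-rich_dup1706_1189375 held 2409, 2679 and 2407 reads with the U7 ASO, against 2006, 1649 and 1861 in the controls, and at a log2 fold change of 0.33 it missed the threshold (adjusted p = 0.722). Without it the GA-rich name stood at −0.30 (adjusted p = 0.312).

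**Figure D2:**
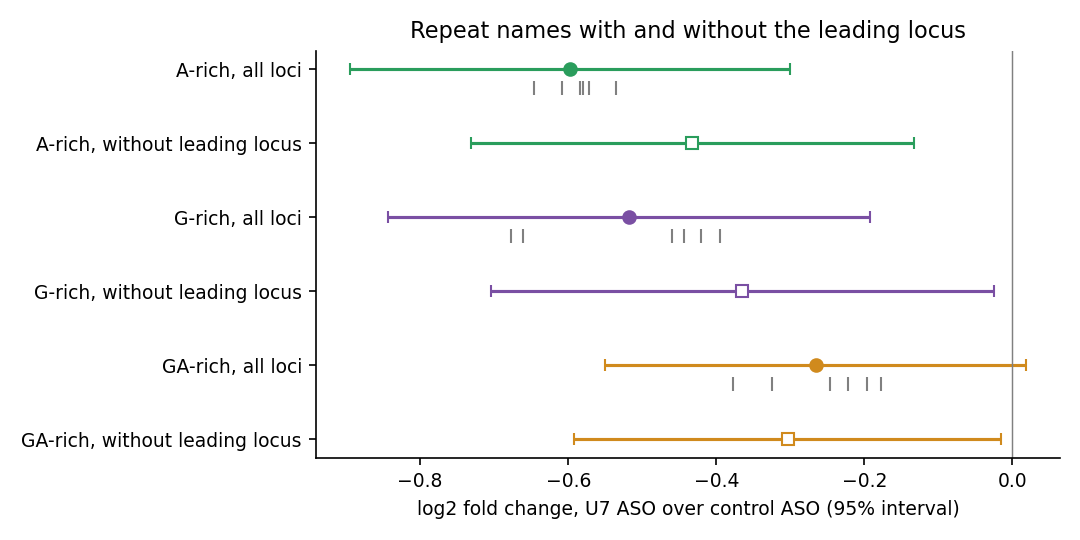
Log2 fold change of each repeat name, U7 ASO over control ASO, with its 95% interval, for all loci (filled circles) and without the leading locus (open squares). Grey ticks give the value with each library left out in turn, which ranges from −0.65 to −0.54 for A-rich, −0.68 to −0.40 for G-rich and −0.38 to −0.18 for GA-rich tracts.

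The leading A-rich and G-rich loci lay in a stretch of loci that were mostly lower with the U7 ASO. The 21 listed loci with running numbers from 3036302 to 3036323 held 7351, 10226 and 11419 reads with the U7 ASO, against 21855, 22480 and 24429 in the controls. The stretch was drawn around the 2 leading loci, which are counted in it, so its sums and counts are a description. Over all tested loci 47.3% had a log2 fold change below 0 and 0.473% were called lowered. Of the 13 loci of the stretch that were tested, 11 had a log2 fold change below 0 and 4 were called lowered. Besides the 2 low-complexity loci these were the simple repeat (GCAGAGG)n_3036320 and L1MC3_dup316_3036317, a fragment of an ancient long interspersed element. (GCAGAGG)n_3036320, at 2 running numbers from the G-rich locus, held 4209, 5578 and 5817 reads with the U7 ASO, against 12724, 12216 and 14915 in the controls (log2 fold change −1.48, SE 0.22, adjusted p = 0.000574). L1MC3_dup316_3036317 had 175, 405 and 323 reads with the U7 ASO, against 522, 601 and 832 in the controls, and fell by 1.24 on the log2 scale (SE 0.32, adjusted p = 0.0403). (A)n_dup612_3036323, the next listed locus after the G-rich one, had a log2 fold change of −0.46 and was not called (adjusted p = 0.791). Neighbouring running numbers are neighbours in the authors' listing, and the distance in bases is not known from the tables. Whether the calls of this stretch are separate from each other was not tested.

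**Figure D3:**
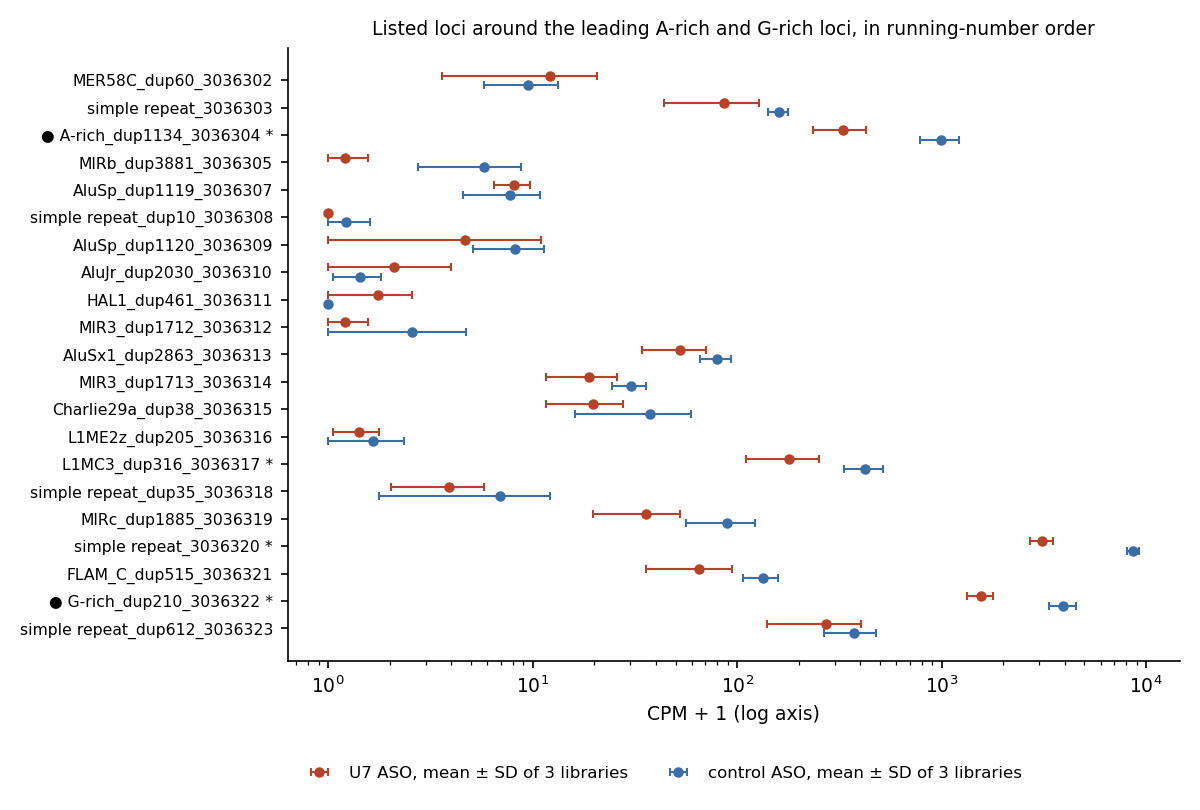
Mean CPM + 1 ± SD of 3 libraries (log axis) for the 21 listed loci around the leading A-rich and G-rich loci, in running-number order, with U7 ASO drawn above control ASO. Dots before a label mark low-complexity loci and asterisks mark the 4 loci called lowered, among them the A-rich locus at 329 CPM with the U7 ASO and 994 CPM in the controls.

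Most low-complexity loci held few reads, which limited what could be tested for single tracts. The median locus had 6 reads over the 6 libraries, 4856 loci had at most 10 reads, and 3742 had reads in only 1 library. Conversely, 59 loci with over 1000 reads held 49.98% of all low-complexity reads. The count filter passed 630 loci (8.77% of those listed), which held 84.2% of the low-complexity reads: 288 G-rich, 247 GA-rich and 95 A-rich loci. A locus with no control reads passed only if the U7 ASO libraries held enough reads, and the reverse holds for loci with no U7 ASO reads.

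Few of the tested tracts passed the threshold. At an adjusted p under 0.05 over all loci, 10 low-complexity loci were called, of which 4 were raised and 6 lowered. Over all 14380 tested loci 4.96% were called, with 4.49% raised and 0.473% lowered, while the raised and lowered shares of the tracts were 0.635% and 0.952%. At an unadjusted p under 0.05 there were 24 higher and 55 lower tracts (3.81% and 8.73%), beside 8.21% higher and 4.09% lower of all tested loci. Simple repeats, with 2717 loci tested, had 0.552% called raised and 0.626% called lowered. At an unadjusted p under 0.05 they had 2.83% higher and 5.63% lower. By name, 2 G-rich, 1 GA-rich and 1 A-rich locus were raised, and 4 G-rich and 2 A-rich loci were lowered. Of the GA-rich loci 0 were lowered by edgeR, against 4 by DESeq2 and 2 by limma-voom, and 20 were lower at an unadjusted p under 0.05. In other settings 1 to 7 loci were raised and 1 to 12 lowered, beside 0.142% to 7.8% and 0.0131% to 1.69% of all loci tested. There were 1 raised and 2 lowered loci without U7 ASO replicate 1 and likewise without U7 ASO replicate 2, and 2 and 2 without U7 ASO replicate 3. Numbers were 3 and 2 without control replicate 1, 5 and 1 without control replicate 2, and 3 and 8 without control replicate 3. With 1 library left out 772 to 792 tracts were tested. Of all loci tested in these fits 1.33% to 2.88% were raised and 0.0699% to 0.189% lowered, so the calls became fewer over the whole table too.

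The median log2 fold change was −0.18 for the tested A-rich loci, −0.01 for G-rich loci and −0.09 for GA-rich loci, against 0.06 over all tested loci. Below 0 lay 57 of 95 A-rich, 144 of 288 G-rich and 135 of 247 GA-rich loci. The groups did not overlap at 52 low-complexity loci that were higher with the U7 ASO and at 79 that were lower. Those are 8.25% and 12.5% of the tested tracts, beside 12.2% and 8.36% of all tested loci. Simple repeats were close to the tracts, with 6.29% higher and 11.2% lower without overlap among their 2717 tested loci. Among simple repeats with units of A and G, or of C and T, the shares were 7.21% and 12.3%. The tracts with the most RNA were mostly lower. Of the 63 tested tracts with a mean of at least 100 CPM, 50 had a log2 fold change below 0, beside 374 of 582 such loci over all repeats, and their medians were −0.31 and −0.16. Among the 350 tracts under 20 CPM 177 lay below 0. Upper-quartile scaling moved the median of all loci by −0.15, so these medians are read against those of all loci.

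**Figure D4:**
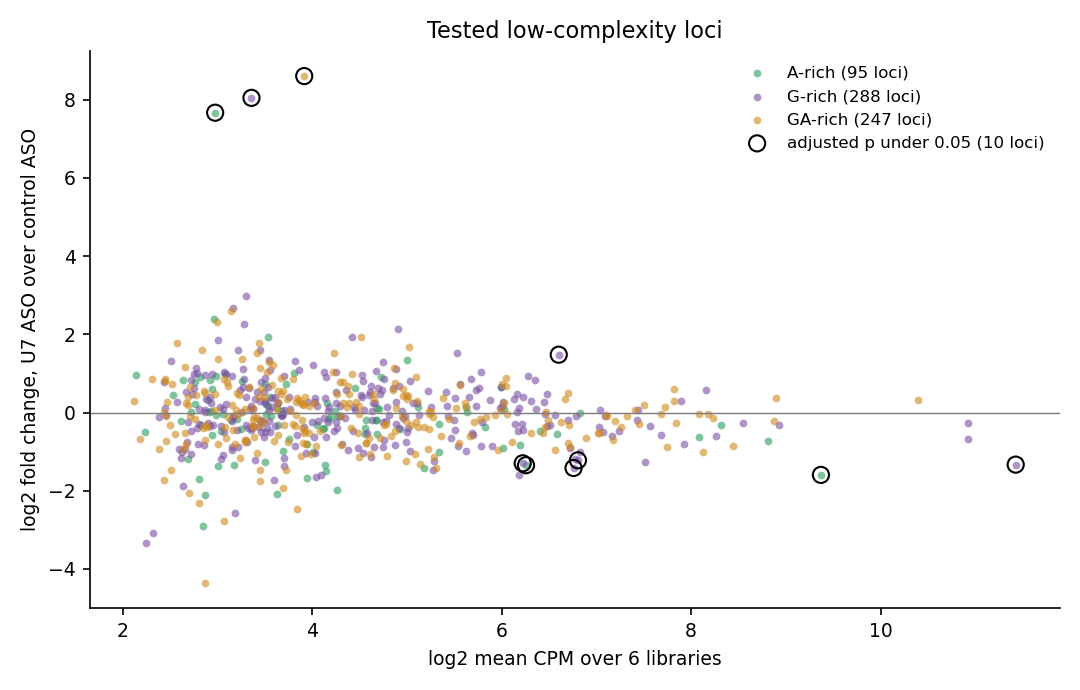
Log2 fold change of the 630 tested low-complexity loci, U7 ASO over control ASO, against log2 mean CPM over 6 libraries, coloured by repeat name, with rings around the 10 loci past the threshold. The 3 ringed points at the top had no reads in the controls, and the 2 ringed points at the right are A-rich_dup1134_3036304 and G-rich_dup210_3036322.

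Of the 4 raised tracts, 3 had no read in any control library, and each of these 3 was listed within 20 running numbers of a raised LTR12C locus, an endogenous retroviral long terminal repeat that can act as a promoter. GA-rich_dup40_1855602 held 57, 42 and 52 reads with the U7 ASO, against 0, 0 and 0 in the controls. It was at least 46.1-fold higher against a floor of 3 reads over the control group (adjusted p = 0.000534), and the raised locus LTR12C_dup16_1855615 stood 13 running numbers from it. G-rich_dup444_1101286 held 52, 33 and 15 reads with the U7 ASO, against 0, 0 and 0 in the controls, and was at least 30.6-fold higher (adjusted p = 0.00449). The raised locus LTR12C_dup127_1101293 was 7 running numbers away. A-rich_dup2938_2406672 held 20, 31 and 28 reads with the U7 ASO, against 0, 0 and 0 in the controls, and was at least 24.1-fold higher (adjusted p = 0.00894). It was listed directly after LTR12C_dup123_2406671, which held 238, 195 and 234 reads with the U7 ASO and 10, 0 and 8 in the controls. The call of the GA-rich locus held in all 17 alternatives. The G-rich locus did not pass under limma-voom or when U7 ASO replicate 1 or 2 was left out (adjusted p up to 0.174). The A-rich locus did not pass under limma-voom or when any U7 ASO library was left out (adjusted p up to 0.117). Both the G-rich and the A-rich locus had 15 alternatives only. Neither passed the filter at a minimum count of 20 or with counts halved, so they were not tested there.

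Of these 3 tracts, G-rich_dup444_1101286 had raised loci other than LTR12C within 5 running numbers. At the others no such neighbour was tested. Within 5 running numbers the loci L2a_dup8244_1101283, AluJb_dup5119_1101284 and MIR3_dup4043_1101290 were called raised, all with 0 reads in the controls. They held 14, 23 and 31, then 24, 25 and 39, and then 21, 42 and 30 reads with the U7 ASO. Around GA-rich_dup40_1855602 none of the other 7 listed loci within 5 running numbers was tested. AluJb_dup97_1855600, 2 running numbers away, held 24, 23 and 13 reads with the U7 ASO, against 0, 0 and 0 in the controls. Around A-rich_dup2938_2406672 the other listed loci, L2c_dup6157_2406673 and AluSg_dup1980_2406674, held 26 and 24 reads with the U7 ASO and 0 in the controls, and were not tested either.

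Tracts listed near raised LTR12 and HERV9 loci held more reads with the U7 ASO as a group. In all, 328 LTR12 or HERV9 loci were called raised, and 20 low-complexity loci were listed within 20 running numbers of at least 1 of these. They held 228, 181 and 199 reads with the U7 ASO, against 25, 31 and 29 in the controls, and the groups were far apart. This gives 122 ± 19.5 CPM with the U7 ASO and 18.5 ± 2.34 CPM in the controls (SD, n = 3 each). Most of these U7 ASO reads lay in a few loci. The 3 raised tracts described above held 151, 100 and 79 of them over the U7 ASO libraries, and G-rich_dup400_1087610 held 128. Of these 20 loci 14 (70.0%) had reads in U7 ASO libraries only and 0 in control libraries only, beside 35.7% and 25.6% of the other 7166 tracts and 45.7% and 26.8% of all listed loci. The other 7166 loci stood at 36401 ± 2788 CPM with the U7 ASO and 42654 ± 3778 CPM in the controls, and 1 of them was called raised. Within 50 running numbers, 54 loci stood at 234 ± 43.0 CPM with the U7 ASO and 125 ± 15.6 CPM in the controls. These 54 include the 20 loci above, so the sums of the 2 distances are not independent. The neighbouring elements were selected as raised in the same libraries, so these sums are a description, and the part of the retroviral loci in the reads of the tracts was not tested. Among the tested tracts within 20 running numbers, G-rich_dup400_1087610 alone was not called, at 38, 47 and 43 reads with the U7 ASO against 15, 14 and 29 in the controls.

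The fourth raised tract, G-rich_dup591_742769, had control reads, and the nearest raised LTR12 or HERV9 locus was 77840 running numbers away. It held 292, 225 and 192 reads with the U7 ASO, against 79, 105 and 50 in the controls (143 ± 39.9 and 51.3 ± 19.8 CPM). The log2 fold change was 1.48 (SE 0.37, adjusted p = 0.0308). Its neighbours (GCT)n_dup30_742768 and (GCC)n_dup36_742767 were not called, with values of 0.62 and 0.35 on the log2 scale. X6A_LINE_dup59_742766, 3 running numbers away, held 18, 35 and 34 reads with the U7 ASO, against 3, 17 and 8 in the controls. Its log2 fold change was also 1.48 and did not pass (adjusted p = 0.528). Leaving out any 1 of the 6 libraries ended the call, and the largest adjusted p in any alternative was 0.258.

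The other 4 lowered tracts had means of 74.6 to 112 CPM over the 6 libraries, above most of the tested tracts, of which 350 lay under 20 CPM and 151 between 20 and 50 CPM. G-rich_dup334_4946746 held 124, 91 and 77 reads with the U7 ASO, against 325, 211 and 188 in the controls (59.0 ± 18.3 and 158 ± 48.9 CPM). It fell by 1.42 on the log2 scale (SE 0.35, adjusted p = 0.0281). A-rich_dup233_4949929 held 66, 69 and 82 reads with the U7 ASO, against 177, 179 and 148 in the controls (43.1 ± 1.604 and 110 ± 14.98 CPM). Its log2 fold change was −1.35 (SE 0.32, adjusted p = 0.0210). G-rich_dup19_5051410 held 71, 63 and 83 reads with the U7 ASO and 189, 155 and 144 in the controls, and fell by 1.30 on the log2 scale (SE 0.32, adjusted p = 0.0289). G-rich_dup450_2678616, the closest to the threshold, held 120, 124 and 89 reads with the U7 ASO and 293, 241 and 184 in the controls. Its fall was by 1.22 on the log2 scale (SE 0.33, adjusted p = 0.0481).

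In each of the 4 the groups did not overlap. No other locus called lowered was listed within 5 running numbers of them, where few loci were tested. Around A-rich_dup233_4949929, (GGCAGT)n_4949930 held 158, 92 and 109 reads with the U7 ASO and 146, 134 and 94 in the controls (log2 fold change −0.18, adjusted p = 0.948). L1M4c_dup46_4949928, on the other side, stood at −0.87 on the log2 scale (adjusted p = 0.932). (GCAGTG)n_4949931, 2 running numbers away, held 0, 4 and 0 reads with the U7 ASO and 16, 8 and 16 in the controls, and was not tested. Each of these 4 calls ended when any U7 ASO library or control replicate 1 or 2 was left out, with no count filter (adjusted p from 0.0680 to 0.423) and against a fold of 1.5 (adjusted p from 0.0854 to 0.183). G-rich_dup450_2678616 also missed the threshold with DESeq2 size factors (adjusted p = 0.0519), and no alternative gave any of the 4 an adjusted p above 0.423. The 2 abundant lowered loci were more stable, since A-rich_dup1134_3036304 passed in all 17 alternatives and G-rich_dup210_3036322 failed only without U7 ASO replicate 2 or control replicate 2 (adjusted p up to 0.0667).

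**Figure D5:**
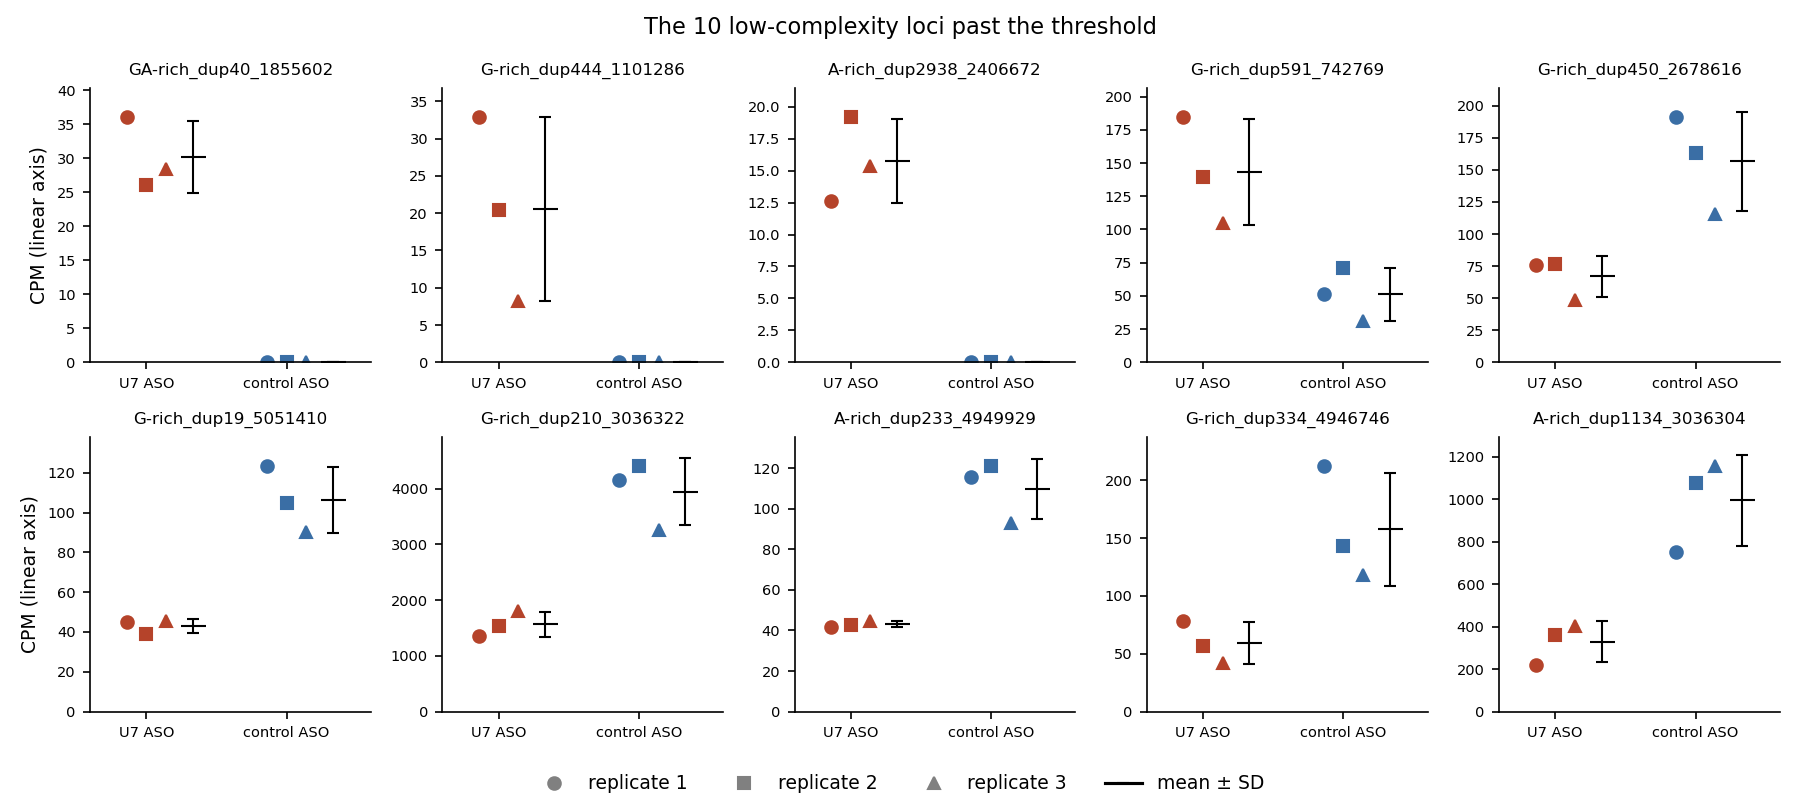
CPM per library (linear axes from 0) of the 10 low-complexity loci past the threshold, with U7 ASO libraries left of control libraries and bars for mean ± SD of 3 libraries. The first 3 panels have no control reads, the fourth is G-rich_dup591_742769 at 143 CPM with the U7 ASO and 51.3 CPM in the controls, and the other 6 are lower in every U7 ASO library.

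Reads were concentrated in a few tracts, and less so with the U7 ASO. The 10 tracts with the most reads in a library took 25.2%, 24.2% and 22.9% of its low-complexity reads with the U7 ASO, against 31.2%, 31.3% and 30.2% in the controls (exact permutation p = 0.1, the smallest possible). Without the leading A-rich and G-rich loci the shares were 21.7% ± 2.04 with the U7 ASO and 24.0% ± 1.02 in the controls (SD, n = 3 each, exact permutation p = 0.3). By mean CPM the 10 most abundant tracts were 5 G-rich, 3 GA-rich and 2 A-rich loci. Of these, 8 had a log2 fold change below 0 and 2 were called, A-rich_dup1134_3036304 and G-rich_dup210_3036322.

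The next in abundance did not pass. G-rich_dup421_74495 held 3668, 2866 and 2230 reads with the U7 ASO and 3601, 2891 and 3283 in the controls (log2 fold change −0.26, 95% interval −0.82 to 0.30). G-rich_dup264_2596518 held 3133, 1805 and 2516 reads with the U7 ASO, against 4160, 4236 and 2519 in the controls (log2 fold change −0.68, adjusted p = 0.336), and passed without a count filter. A-rich_dup38_2912343 stood at 336 ± 54.2 CPM with the U7 ASO and 559 ± 58.0 CPM in the controls, with no overlap (log2 fold change −0.73, adjusted p = 0.169), and passed with DESeq2 (adjusted p = 0.0247), limma-voom (adjusted p = 0.0405) and no count filter (adjusted p = 0.0407). G-rich_dup218_4925068 and G-rich_dup777_264849 had log2 fold changes of −0.31 and −0.27, and GA-rich_dup388_4510093 of −0.21. GA-rich_dup543_3552637 stood at 540 ± 189 CPM with the U7 ASO and 416 ± 127 CPM in the controls (log2 fold change 0.37, adjusted p = 0.819). For these loci the spread between replicates was as large as the difference or nearly so, apart from A-rich_dup38_2912343 and G-rich_dup218_4925068, where the groups did not overlap.

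The largest fitted changes outside the called loci belonged to tracts with few reads. GA-rich_dup319_2741372 held 3, 0 and 0 reads with the U7 ASO, against 33, 20 and 11 in the controls, a ratio of 0.0430 (exact 95% interval 0.00864 to 0.131, counting error only). It did not pass by edgeR (adjusted p = 0.112) but did by DESeq2 (adjusted p = 0.0214). G-rich_dup358_3387091 held 4 reads over the U7 ASO libraries and 40 over the controls, and G-rich_dup257_4666851 held 5 with the U7 ASO and 41 in the controls. A-rich_dup1043_4750985 held 8 reads with the U7 ASO, all in replicate 2, and 59 in the controls. GA-rich_dup1358_253859 held 10 with the U7 ASO and 67 in the controls, and none of these 4 passed. In the other direction, G-rich_dup473_88080 held 50, 18 and 18 reads with the U7 ASO, against 7, 1 and 2 in the controls (log2 fold change 2.97, adjusted p = 0.136). G-rich_dup195_4921846 held 31, 25 and 21 reads with the U7 ASO, against 5, 2 and 4 in the controls (log2 fold change 2.67, adjusted p = 0.149).

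Tracts with a read were somewhat more numerous with the U7 ASO, with overlap between the groups. Over all repeat loci, at unmatched depth, the ratio was larger. Reads were found in 2641, 2967 and 2993 low-complexity loci of the U7 ASO libraries, against 2396, 2775 and 2361 of the controls. Over all listed loci the numbers were 118352, 160749 and 157931 with the U7 ASO, against 96631, 120658 and 109027 in the controls. The ratio of the group means, U7 ASO over control ASO, was 1.14 for the tracts and 1.34 for all listed loci. At 56837 low-complexity reads each, the smallest total of the 6 libraries, the expected numbers were 2605, 2967 and 2959 with the U7 ASO and 2330, 2709 and 2343 in the controls (exact permutation p = 0.2). Only 735 tracts had reads in all 6 libraries. Another 2572 (35.8%) had reads in U7 ASO libraries only and 1837 (25.6%) in control libraries only, beside 45.7% and 26.8% of all listed loci. Reads in all 3 libraries of 1 group and none of the other were found at 59 tracts (0.821%) for the U7 ASO and at 33 (0.459%) for the controls, beside 1.10% and 0.319% of all listed loci. Of the 59, 3 had a raised LTR12 or HERV9 element within 20 running numbers, and they were the 3 raised tracts with no control reads. Among the remaining 56 the most reads were at GA-rich_dup483_4375600, with 20, 8 and 38 in the U7 ASO libraries.

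Simple repeats of like base composition were set beside the tracts, since a tract is not a tandem repeat of a fixed unit. Repeats with units of only A or only T stood at 2239, 2141 and 2160 CPM with the U7 ASO, against 2345, 2784 and 3055 CPM in the controls. The groups did not overlap, and the ratio of means, U7 ASO over control ASO, was 0.799, beside a fitted ratio of 0.661 for A-rich tracts. Of the 6 such names tested 0 were called by edgeR, DESeq2 or limma-voom, and 1 was lower at an unadjusted p under 0.05. (A)n had a log2 fold change of −0.39 (adjusted p = 0.286) and (T)n one of −0.27 (adjusted p = 0.493). Of their 75 tested loci 0 were called by these tools, with 0 higher and 4 lower at an unadjusted p under 0.05.

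Repeats with units of only G or only C stood at 730 ± 80.8 CPM with the U7 ASO and 984 ± 105 CPM in the controls, and 0 of the 4 tested names passed with any of the 3 tools, with 1 lower at an unadjusted p under 0.05. (C)n stood at a log2 fold change of −0.52 (adjusted p = 0.181) and (G)n at 0.19 (adjusted p = 0.794). Units made of A and G, or of C and T, summed to 20952, 17569 and 16507 CPM with the U7 ASO, against 24921, 22783 and 20876 CPM in the controls. U7 ASO replicate 1 lay just above control replicate 3, as it did for G-rich and GA-rich tracts. Of the 174 such names tested edgeR called 3 lowered and 0 raised, beside 23 lowered (1.03%) of all 2236 names tested. At an unadjusted p under 0.05, 20 of the 174 were lower and 1 was higher. DESeq2 called 9 lowered and 1 raised, and limma-voom 4 and 0. (CT)n, on 314 listed loci, stood at 834 ± 140 CPM with the U7 ASO and 1498 ± 337 CPM in the controls, and fell by 0.85 on the log2 scale (SE 0.19, adjusted p = 0.0158). (TCTTC)n and (CTTCCCC)n, on 16 and 3 listed loci, fell by 1.44 and 1.20 on the log2 scale. The median log2 fold changes of the tested loci were −0.15, −0.26 and −0.08 for the 3 kinds of unit, beside −0.07 for all tested low-complexity tracts. Whether the tracts and the simple repeats differ was not tested.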

How the data were processed

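For each library the authors deposited a table of read counts in which every row is a repeat locus. The submitters' processing notes name build GRCh38, featureCounts 1.5.0-p1, STAR 2.5.3a and FastQC 0.11.5. The sources used here do not give the repeat annotation, the strand setting or how multi-mapping reads and mates were counted, so reads of near-identical copies are uncertain. Without strand, a tract and a transcript crossing it on the other strand are not separated. Between 62.4% and 66.8% of the low-complexity counts above 0 were even, as when both mates are counted. No molecular identifiers were reported, so reads are not independent molecules.

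Groups came from the sample titles. Counts per locus, and counts summed per repeat name, were each tested over the whole table with edgeR 4.0.16 (quasi-likelihood, two-sided, TMM, filterByExpr with minimum count 10 and minimum total 15) under R 4.3.3. P-values were adjusted by Benjamini-Hochberg over all 14380 loci or 2236 names, with a threshold of 0.05. CPM are on the TMM scale of the test. Library sizes were taken after the filter of each test, so CPM of loci and CPM of names are on different scales. Sums by repeat name and sums of simple repeats use the name scale. Single loci, and sums of tracts by distance from LTR12 and HERV9 loci, use the locus scale. Adjusted p-values in the text without a named tool are from edgeR. Filtering removed 12.8% to 20.2% of a library's low-complexity reads. Alternatives used limma 3.58.1 (voom), DESeq2 1.42.0 and the settings described under the closing section. The code was checked on simulated counts.

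Named features were every low-complexity repeat name, every called low-complexity locus with the listed loci within 5 running numbers of it, the 10 with the highest mean CPM, and, among tested loci, the 5 that had risen most and the 5 that had fallen most by log2 fold change. Others were named after their values were seen. The members, lists and the distance of 20 running numbers were chosen with earlier results of these data known.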

Additional observations from a re-analysis of the deposited data

How the results depend on the processing

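Every log2 fold change of the 3 names stayed below 0 in every alternative. A-rich tracts lost their call with library totals only (−0.55), against a fold of 1.5 (−0.60) and without the leading locus (−0.43). G-rich tracts passed without a count filter (−0.51) and with limma-voom (−0.52). Leaving out 1 library gave −0.65 to −0.54 for A-rich, −0.68 to −0.40 for G-rich and −0.38 to −0.18 for GA-rich tracts. The number of names called was 1 and became 0 with library totals only and against a fold of 1.5, 2 without a count filter and with limma-voom, and 0 to 3 with 1 library left out. The 4 raised and 6 lowered loci became 7 and 12 with DESeq2 and 2 and 10 with limma-voom. Over all tested loci DESeq2 called 5.5% raised and 1.05% lowered, and limma-voom 2.37% and 0.549%. With counts halved (divided by 2 and rounded up) 6 of 392 tested tracts were raised and 10 lowered, beside 7.8% and 1.69% of all tested loci. Against a fold of 1.5, 3 were raised and 2 lowered, beside 4.28% and 0.264% of all tested loci. With 1 library left out, 1 to 5 were raised and 1 to 8 lowered. Of all tested loci 1.33% to 2.88% were then raised and 0.0699% to 0.189% lowered. GA-rich_dup388_4510093, which had not passed, changed sign to 0.019 without control replicate 1. The causes were not tested.

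With the replicate number as a block, 2 names passed, G-rich tracts among them (−0.52, adjusted p = 0.00797). In that fit 5 tracts were raised and 10 lowered, beside 4.1% and 0.605% of all tested loci. Deviations from the group mean in same-numbered libraries had correlations across names of 0.11, −0.03 and 0.12. Libraries of unlike number had −0.15 to 0.06. U7 ASO replicates 1 and 3 correlated best with the control of their own number, and U7 ASO replicate 2 with control replicate 3. All these correlations are weak, and whether the numbers mark a shared batch cannot be told from them.

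The share of low-complexity reads differed by −0.75 percentage points, and by −1.52 with reads outside 7SK, HY1 and ribosomal RNA as the denominator, a choice made after seeing the data. It was −0.97 to −0.59 with 1 library left out, and the difference in loci with a read was 282 to 488. The median between-replicate coefficient of variation was 52.4% over the tested tracts and 66.5% over all tested loci. Reads sufficed to test 630 of 7186 tracts, and no test was made of the others.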
